A study of Mus musculus with 107 samples.

Results

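The genes described here are 35 genes of glycolysis and of the response to low oxygen (hypoxia), followed through RNA of mouse embryonic stem (ES) cells in which distal DNA elements had been deleted. They were taken from a list of gene symbols, and all 35 matched an identifier among the 51435 genes of the count tables. All 35 were among the 19993 genes tested after a filter on low counts. 15 encode enzymes of glycolysis, from the hexokinases Hk1 and Hk2 to lactate dehydrogenase Ldha, and 20 are further targets of hypoxia-inducible factor (HIF). They lie on 15 chromosomes and 1 of them, Pgk1, is X-linked.

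HIF is a transcription factor made of an oxygen-sensitive alpha subunit (Hif1a or Epas1) and the stable partner Arnt. In the presence of oxygen the prolyl hydroxylases encoded by Egln1, Egln2 and Egln3 mark the alpha subunit, Vhl binds it and it is degraded. When oxygen is short the subunit persists and raises transcription of glucose transporters (Slc2a1, Slc2a3), glycolytic enzymes, the lactate exporter Slc16a3 and Pdk1, a kinase that inhibits pyruvate dehydrogenase and so holds back the oxidation of pyruvate in mitochondria. Egln1 and Egln3 are themselves HIF targets, so the pathway holds a brake that HIF turns on. Mouse ES cells are known for a high rate of glycolysis.

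The study asked what DNA elements bound by Polycomb repressive complex 2 (PRC2), which places the H3K27me3 mark on histone H3, do for gene expression. B6NJ mouse ES cells with an element removed on chromosome 9, 7, 3 or 2 were compared with the undeleted parental B6NJ line. Each deletion is represented by 2 clones: F1 and G9 for chr9, D4 and F4 for chr7, C2 and H7 for chr3, and D10 and G5 for chr2. Each line was sequenced as 3 libraries, F1 as 2, giving 26 libraries of stranded poly(A) RNA, 3 of them parental. All lines, the parental one included, grew on irradiated mouse fibroblast feeders in high-glucose medium with pyruvate and the kinase inhibitors PD0325901 and CHIR99021, with no hypoxia treatment named. The labels place the chr9 deletion at chr9:37451506-37461721 and the chr7 deletion at chr7:143440438-143450716, and the other intervals were not given in the labels. Each line is 1 clone. The labels do not say whether replicates were separate cultures, so the p-values rest on a spread that may be technical alone, and differences between clones that have no bearing on a deletion are not covered by them.

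Depth, in M counts assigned to genes, ran from 90.3 to 128 for the parental and chr9 libraries (8 in all) and from 39.7 to 60.2 for the 18 others. Deletion and depth or batch cannot be told apart where chr7, chr3 or chr2 is set against the parental line. The 35 genes held 2.31% to 3.32% of the counts. The sum of 8 ES cell markers was 6994 to 9188 CPM (counts scaled to a common library total) per library, and no marker was at 0. The sum hides changes in both directions: 2 rose and 3 fell with chr9, 2 and 4 with chr7, 4 and 3 with chr3, and 4 and 3 with chr2. The shares of all tested genes are given with each deletion below. The sum of 15 feeder fibroblast markers was 69.3 to 92.7 CPM in the parental libraries, 93.96 to 127 in F1, 197 to 375 in G9, 50.4 to 56.7 in D4, 51.8 to 62.6 in F4, 34.2 to 35.4 in C2, 32.2 to 35.5 in H7, 87.8 to 97.5 in D10 and 88.6 to 94.4 in G5. Of the 14 feeder markers tested, 13 rose and 0 fell with chr9, 0 rose and 9 fell with chr7, 0 rose and 12 fell with chr3, and 4 rose and 3 fell with chr2. Lum was at 0 in D4, C2 and H7 and Dcn in F4 and H7, and the other markers were above 0 in every line. The summed level of Y-linked genes, in percent of the parental mean, was 14.6 in F1, 18.8 in G9, 71.9 in D4, 68.0 in F4, 57.4 in C2, 142 in H7, 14.4 in D10 and 21.4 in G5. Whether these differences contribute to the results was not tested. The chr9 and chr7 intervals hold none of the 35 genes, so the counts of these genes do not check those deletions. Other genes in the intervals were not examined here, and chr3 and chr2 could not be examined in this way. The members nearest to the chr9 or chr7 interval were Bnip3 at 4.53 Mb on chromosome 7, Aldoa at 16.6 Mb on chromosome 7 and Pkm at 22.2 Mb on chromosome 9.

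The promoters of 6 genes on which the results turn are printed first. The oxygen sensors Egln1 and Egln3 and the glucose transporter Slc2a1 were lower than in the parental line with all 4 deletions. The kinase Pdk1 fell most with chr9 and chr2. The stress regulator Ddit4 and the collagen prolyl hydroxylase P4ha1 were higher in the chr7, chr3 and chr2 clones. Each window runs from 250 bases before to 50 bases after the transcript start, 5′ to 3′ on the gene's strand, from RefSeq on GRCm38.p6. Capitals mark ACGTG and GCGTG, the core letters of the HIF site (the hypoxia response element), or their reverse complements CACGT and CACGC. The windows are at chr8:124949205-124949504, minus strand (Egln1); chr12:54203825-54204124, minus strand (Egln3); chr4:119108495-119108794, plus strand (Slc2a1); chr2:71872974-71873273, plus strand (Pdk1, the first of 2 RefSeq windows); chr10:59951721-59952020, minus strand (Ddit4); and chr10:59323046-59323345, plus strand (P4ha1).
Egln1: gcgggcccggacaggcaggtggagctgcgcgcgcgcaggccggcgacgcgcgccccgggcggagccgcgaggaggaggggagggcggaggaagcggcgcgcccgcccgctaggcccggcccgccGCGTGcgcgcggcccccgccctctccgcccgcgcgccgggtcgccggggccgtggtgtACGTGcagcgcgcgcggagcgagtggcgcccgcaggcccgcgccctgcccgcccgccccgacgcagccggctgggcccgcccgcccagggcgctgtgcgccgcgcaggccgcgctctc
Egln3: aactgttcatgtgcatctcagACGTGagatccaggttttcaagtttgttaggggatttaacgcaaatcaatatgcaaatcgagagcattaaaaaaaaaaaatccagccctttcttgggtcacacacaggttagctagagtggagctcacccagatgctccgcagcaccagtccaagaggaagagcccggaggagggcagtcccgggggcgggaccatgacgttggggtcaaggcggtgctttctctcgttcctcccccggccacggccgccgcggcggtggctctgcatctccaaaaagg
Slc2a1: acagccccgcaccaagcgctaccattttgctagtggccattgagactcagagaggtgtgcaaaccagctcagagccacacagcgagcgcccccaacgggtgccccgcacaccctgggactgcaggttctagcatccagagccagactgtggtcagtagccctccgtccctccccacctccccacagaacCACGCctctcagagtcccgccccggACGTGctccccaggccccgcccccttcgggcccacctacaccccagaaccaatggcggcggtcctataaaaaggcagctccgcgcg
Pdk1: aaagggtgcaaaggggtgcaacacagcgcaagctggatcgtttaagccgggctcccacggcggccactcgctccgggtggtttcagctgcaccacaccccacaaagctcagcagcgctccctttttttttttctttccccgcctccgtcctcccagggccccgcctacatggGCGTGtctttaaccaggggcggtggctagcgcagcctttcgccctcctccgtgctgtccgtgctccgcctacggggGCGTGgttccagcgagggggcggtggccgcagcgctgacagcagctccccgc
Ddit4: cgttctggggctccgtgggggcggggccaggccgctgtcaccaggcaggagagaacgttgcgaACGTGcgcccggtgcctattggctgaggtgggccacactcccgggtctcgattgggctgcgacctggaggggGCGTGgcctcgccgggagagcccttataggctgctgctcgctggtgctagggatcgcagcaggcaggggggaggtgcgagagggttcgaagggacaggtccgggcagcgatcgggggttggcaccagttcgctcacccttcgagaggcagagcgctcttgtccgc
P4ha1: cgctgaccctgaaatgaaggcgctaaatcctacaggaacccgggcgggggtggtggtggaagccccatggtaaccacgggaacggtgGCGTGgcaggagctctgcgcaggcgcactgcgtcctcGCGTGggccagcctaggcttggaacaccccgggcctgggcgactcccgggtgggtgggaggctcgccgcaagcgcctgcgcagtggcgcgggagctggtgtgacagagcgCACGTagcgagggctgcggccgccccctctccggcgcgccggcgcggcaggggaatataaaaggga

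The Egln1, Slc2a1 and Ddit4 windows each hold 1 ACGTG and 1 GCGTG, the Egln3 window 1 ACGTG, the P4ha1 window 1 ACGTG and 2 GCGTG, and the Pdk1 window 2 GCGTG and 0 ACGTG. Of the 35 genes 32 had a window. ACGTG on either strand was in at least 1 window of 24 of them (75%), against 27.5% of the 12897 tested genes that had a window, and GCGTG in 22 (68.8%) against 52.6%. At least 1 of the 2 motifs was in 30 (93.8%) against 63.9%. An ACGTG preceded by C reads the same on both strands and counts as 2 matches. The member genes had more windows each (a mean of 1.56 against 1.26) and a higher median GC content (63.9% against 60%), both of which bear on finding such letters. A match is a description of the letters and not a bound site, and HIF is known to act through such elements at several of these genes.

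With the chr9 deletion, most genes of both groups were lower than in the parental line. Of the 35, 26 were called lower and 0 higher, beside 20.6% of all tested genes called lower and 17.1% called higher (edgeR's quasi-likelihood test with Benjamini-Hochberg adjustment over all tested genes, at 0.05). At an unadjusted p under 0.05 and with DESeq2, the count of genes called higher was also 0. The glycolytic enzymes fell in 14 of 15 cases, with a median log2 change of -0.35 over the 15, and the HIF targets in 12 of 20, with a median of -0.44 over the 20, beside a median of -0.015 over all tested genes. 21 genes were called lower in both clones and 0 higher in both, against 7.5% and 8.33% of all tested genes. Values below are CPM after scaling by the trimmed mean of M values (TMM), and changes are log2 with their standard error (SE), from 5 chr9 and 3 parental libraries. The RNA came from whole cultures, so fewer cells of a type and less RNA per cell cannot be told apart.

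**Figure D1:**
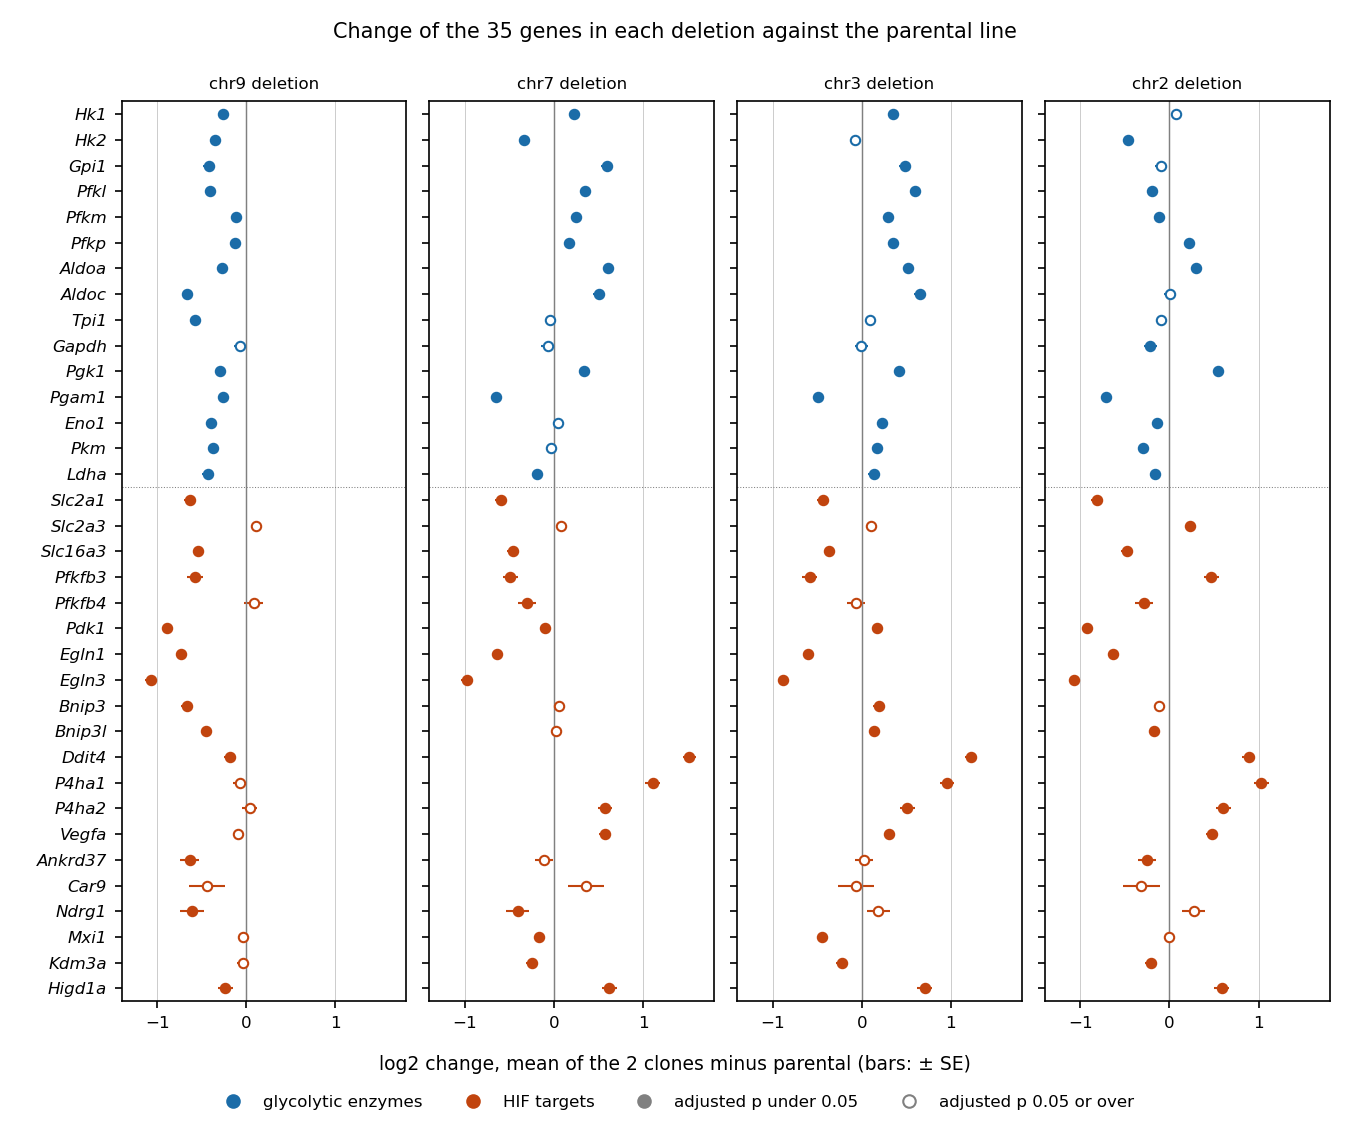
Log2 change of each of the 35 genes against the parental line (x axis, mean of 2 clones; bars are SE) for the 4 deletions in 4 panels, glycolytic enzymes above the dotted line and HIF targets below it. Filled points have an edgeR adjusted p under 0.05: 26 of 35 lie to the left of 0 in the chr9 panel and none to the right, while the other 3 panels hold filled points on both sides.

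Along glycolysis, enzymes fell with chr9 from the first step to the last in the mean of the 2 clones, Gapdh excepted. In both clones 11 of the 15 were called lower, while Pfkp and Pgk1 were called in F1 alone and Pfkm in G9 alone. Aldoc, the brain-type aldolase, which splits the phosphorylated hexose, was at 60.6, 62.3 and 64.8 CPM in the 3 parental libraries, 33.04 and 33.8 CPM in clone F1 and 48.6, 47.2 and 44.9 CPM in clone G9. All 5 chr9 libraries lay below the parental ones, F1 lowest, and the level fell by 0.66 ± 0.065 on the log2 scale (edgeR adjusted p = 9.88e-10). Tpi1, triosephosphate isomerase, fell by 0.57 ± 0.059 from 828, 835 and 834 CPM in the 3 parental libraries to 516 and 515 CPM in clone F1 and 614, 603 and 609 CPM in clone G9, again without overlap. Log2 changes were -0.26 for Hk1 and -0.35 for Hk2, the hexokinases that trap glucose, -0.41 for the isomerase Gpi1 and -0.41 for the liver-type phosphofructokinase Pfkl. The muscle and platelet types Pfkm and Pfkp changed least among those called (-0.12 and -0.13). They overlap the genes Senp1 and Pitrm1, at 78.8% and 22.4% of their levels, so their counts may be mixed if strand was not used. Further down the pathway Aldoa was at -0.27, the phosphoglycerate kinase Pgk1 at -0.30, the mutase Pgam1 at -0.26, the enolase Eno1 at -0.40, the pyruvate kinase Pkm at -0.38 and Ldha at -0.43. Gapdh, which oxidises the triose phosphate, was the 1 enzyme not called (-0.064 ± 0.077, edgeR adjusted p = 0.556).

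The oxygen sensors and Pdk1 were the HIF targets that fell most with chr9. Egln3 (ENSMUSG00000035105.5, chromosome 12) was at 119.7, 118 and 127 CPM in the 3 parental libraries, 49.2 and 53.8 CPM in clone F1 and 66.8, 67.6 and 59.2 CPM in clone G9. Every chr9 library was below every parental one, and the level fell by 1.07 ± 0.063 (edgeR adjusted p = 4.09e-15). Egln1 (ENSMUSG00000031987.6, chromosome 8), the main hydroxylase under normal oxygen, went from 76.1, 74.5 and 78.1 CPM in the 3 parental libraries to 38.97 and 38.99 CPM in clone F1 and 54.1, 55.3 and 52.6 CPM in clone G9, a fall by 0.73 ± 0.057 (edgeR adjusted p = 4.69e-12) with F1 below G9. Pdk1 (ENSMUSG00000006494.11, chromosome 2) was at 249, 239.5 and 245 CPM in the 3 parental libraries and 127 and 122 CPM in clone F1 and 145, 143 and 131 CPM in clone G9, and fell by 0.89 ± 0.041 (edgeR adjusted p = 1.04e-17). Its 5 chr9 libraries lay close together and well under the parental ones.

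The glucose transporter Slc2a1 and the lactate transporter Slc16a3 fell with chr9, and the glucose transporter Slc2a3 was not called. Slc2a1 (ENSMUSG00000028645.11, chromosome 4), the widely expressed glucose transporter, was at 783, 773 and 792 CPM in the 3 parental libraries, 469 and 482 CPM in clone F1 and 553, 553 and 507 CPM in clone G9, and fell by 0.63 ± 0.064 (edgeR adjusted p = 2.3e-09). Slc16a3, a lactate transporter, was at 219, 195 and 189 CPM in the 3 parental libraries, 109 and 114 CPM in clone F1 and 180.1, 177 and 162 CPM in clone G9, and fell by 0.54 ± 0.061, with F1 far below G9. Neither gene's groups overlapped. The span of Slc16a3 overlaps that of the gene Csnk1d, whose mean level was 68.1% of its own. Whether the authors' counting used the strand is not known. Slc2a3, the high-affinity transporter, was not called (0.10 ± 0.053). It was higher in G9 (0.29, edgeR adjusted p = 0.000143) and not called in F1 (-0.080).

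Bnip3, which marks mitochondria for removal, was at 330.3, 311 and 333 CPM in the 3 parental libraries, 147 and 147 CPM in clone F1 and 289, 264 and 299 CPM in clone G9. G9 was just under the parental libraries and F1 far under them, and the mean of the clones fell by 0.67 ± 0.063 (edgeR adjusted p = 4.51e-10). Its relative Bnip3l fell by 0.45 ± 0.049. Ndrg1, a gene induced by hypoxia and metal chelation, was at 75.1, 78.4 and 81.7 CPM in the 3 parental libraries, 44.2 and 45.2 CPM in clone F1 and 60.2, 59.01 and 58.9 CPM in clone G9 (-0.60 ± 0.14, edgeR adjusted p = 0.000584). Ankrd37, a small ankyrin-repeat protein induced by HIF, was at 16.9, 18.4 and 18.2 CPM in the 3 parental libraries, 9.66 and 9.81 CPM in clone F1 and 13.7, 12.9 and 13.99 CPM in clone G9 (-0.64 ± 0.10, edgeR adjusted p = 9.47e-06). Both were lower in all 5 chr9 libraries. The overlapping gene Ufsp2 had 178% of the level of Ankrd37, which makes that count uncertain without strand.

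The remaining HIF targets with chr9 were smaller or mixed. Pfkfb3, which makes the activator of phosphofructokinase, fell by 0.58 ± 0.088, while its relative Pfkfb4 was at 0.083 ± 0.10 and not called. Ddit4, an inhibitor of the growth kinase mTOR, and Higd1a, a small protein of the mitochondrial inner membrane, were called at -0.18 and -0.24. Neither was lower in both clones, nor were the enzymes Pfkm (called in G9), Pfkp and Pgk1 (called in F1). Higd1a was at 76.9, 67.6 and 68.7 CPM in the 3 parental libraries, 46.3 and 47.2 CPM in clone F1 and 68.2 to 90.3 CPM in clone G9, so that F1 lay below the parental range (-0.60, called) and G9 overlapped it (0.13, not called), and the clones differed by 0.73 ± 0.11 (edgeR adjusted p = 3.42e-06). For Ddit4 F1 was lower and G9 higher than the parental line, with the values given where the clones are compared. P4ha1 and P4ha2, which hydroxylate collagen, were at -0.067 and 0.039, the angiogenic factor Vegfa at -0.089, the Myc antagonist Mxi1 at -0.036 and the histone demethylase Kdm3a at -0.035, none of them called. Car9, a carbonic anhydrase, was low in every line (1.30 to 1.62 CPM in the parental line, 0.879 to 1.41 CPM with chr9), overlapped genes at 1980% and 1617% of its level, and was called with no deletion. Feeder marker sums were higher in the chr9 libraries than in the parental ones, as given above, and highest in G9, whose falls were mostly the smaller ones. Under other settings, calls for chr9 were lost by Pfkm with size factors by relative log expression (RLE), library size alone, thinned counts and DESeq2 (-0.10 to -0.039), Ddit4 with RLE size factors, library size alone, the replicate block, thinned counts and DESeq2 (-0.18 to -0.11), Pfkp with library size alone and thinned counts (-0.11 to -0.052) and Higd1a with library size alone and DESeq2 (-0.22 to -0.16). With single libraries left out, they were lost by Pfkm without parental 1 or 2, F1 1 or 2 or G9 1 or 3 (-0.12 to -0.10), Ddit4 without parental 1 or 3, F1 1 or G9 1 or 2 (-0.18 to -0.16), Pfkp without parental 3, F1 1 or G9 2 (-0.13 to -0.11) and Higd1a without parental 1, F1 1 or 2 or G9 2 (-0.25 to -0.18).

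**Figure D2:**
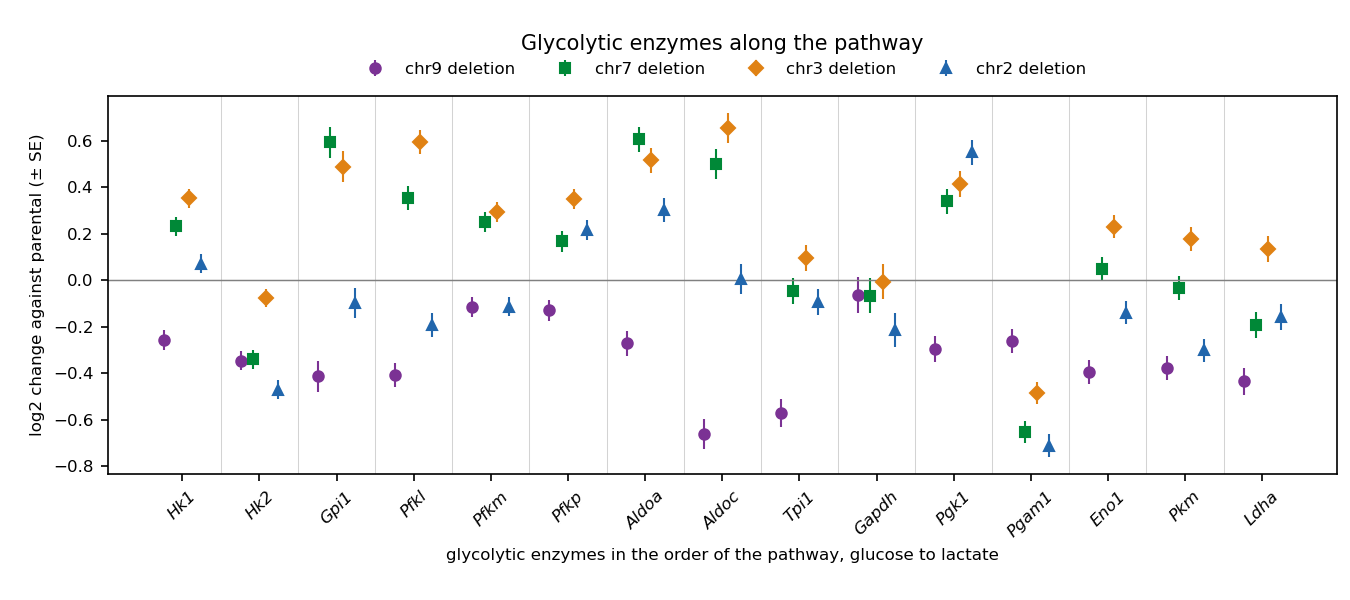
Log2 change against the parental line (y axis, mean of 2 clones; bars are SE) for the 15 glycolytic enzymes in pathway order on the x axis, 1 marker for each deletion. The chr9 markers lie below 0 for all 15 enzymes, whereas Pgam1 is the enzyme at which all 4 deletions lie below 0 with every call made.

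With the chr7 deletion the genes split in both directions. 13 were called higher and 13 lower, beside 27.6% and 35.7% of all tested genes, and the count called lower is near its share. Of the glycolytic enzymes 8 rose and 3 fell, with a median log2 change of 0.17, and of the HIF targets 5 rose and 10 fell, with a median of -0.11, beside -0.067 over all genes. 22 genes were called the same way in clones D4 and F4 (13 higher, 9 lower), against 21.7% higher and 28.7% lower of all genes. With counts thinned to the smallest library the split was 16 higher and 11 lower. Values for chr7, chr3 and chr2 are the lowest, median and highest of 6 libraries.

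The genes that rose with chr7 included stress and matrix genes. Ddit4 (ENSMUSG00000020108.4, chromosome 10) was at 260.1, 241 and 251 CPM in the 3 parental libraries and at 607 (lowest), 714 (median) and 810.2 CPM (highest) with chr7. The lowest chr7 library was far above the highest parental one, and the level rose by 1.52 ± 0.073 (edgeR adjusted p = 5.76e-18). P4ha1 (ENSMUSG00000019916.14, chromosome 10) was at 78.2, 81.8 and 87.4 CPM in the 3 parental libraries and 147 (lowest), 183 (median) and 213 CPM (highest), a rise by 1.11 ± 0.082 (edgeR adjusted p = 2.4e-13). Higd1a went from 76.9, 67.6 and 68.7 CPM in the 3 parental libraries to 94.9 (lowest), 108 (median) and 123 CPM (highest) and rose by 0.62 ± 0.084. Groups did not overlap for any of the 3. P4ha2 rose by 0.57 ± 0.081 and Vegfa by 0.57 ± 0.060.

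Among the enzymes, Aldoa, the main aldolase, was at 2499.5, 2611 and 2558 CPM in the 3 parental libraries and at 3506 (lowest), 3921 (median) and 4148 CPM (highest) with chr7, and rose by 0.60 ± 0.053 (edgeR adjusted p = 1.32e-11). Gpi1 was at 1436, 1519 and 1551 CPM in the 3 parental libraries and at 1831 (lowest), 2282 (median) and 2702 CPM (highest), and rose by 0.59 ± 0.066 (edgeR adjusted p = 2.32e-09). Both lie on chromosome 7, as does the deletion, at 16.6 Mb and 109 Mb from it. Both also rose with chr3 (0.51 and 0.49), with no overlap of the groups. Against the mean of the chr3 and chr2 clones both were called higher with chr7 (0.20 and 0.40), with overlapping ranges. Whether position bears on these values was not tested. Aldoc (0.50), Pfkl (0.35), Pgk1 (0.34), Pfkm (0.25), Hk1 (0.23) and Pfkp (0.17) rose as well. The 3 enzymes that fell were Pgam1, Hk2 (-0.34) and Ldha (-0.19). Pgam1 was at 624, 623 and 599 CPM in the 3 parental libraries and 353 (lowest), 394 (median) and 423 CPM (highest), a fall by 0.65 ± 0.048 (edgeR adjusted p = 2.25e-13).

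The HIF targets that fell with chr7 were led by the oxygen sensors and the glucose transporter Slc2a1. Egln3 was at 52.2 (lowest), 62.01 (median) and 72.8 CPM (highest) and fell by 0.98 ± 0.060 (edgeR adjusted p = 2.31e-15), and Egln1 was at 45.1 (lowest), 46.5 (median) and 55.7 CPM (highest) and fell by 0.64 ± 0.055 (edgeR adjusted p = 6.58e-12). Slc2a1 was at 479 (lowest), 515 (median) and 566 CPM (highest) and fell by 0.60 ± 0.062 (edgeR adjusted p = 3.97e-10). All 6 chr7 libraries were under the parental range for each of the 3. Slc16a3 (-0.46), Pfkfb3 (-0.49), Ndrg1 (-0.41), Pfkfb4 (-0.30), Kdm3a (-0.25), Mxi1 (-0.17) and Pdk1 (-0.10) were also called lower. Under other settings, calls for chr7 were lost by Pdk1 with RLE size factors, thinned counts, the compared libraries alone and DESeq2 (-0.056 to -0.0059), Mxi1 with thinned counts (-0.10), Pfkfb4 with the compared libraries alone (-0.24) and Ndrg1 with DESeq2 (-0.36). With single libraries left out, they were lost by Pdk1 without parental 1 or 3, D4 2 or F4 1 (-0.10 to -0.087) and Pfkfb4 without parental 2 (-0.26).

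With the chr3 deletion most enzymes were higher and the oxygen sensors were lower. 19 of the 35 genes rose and 8 fell, beside 25.4% and 35.4% of all tested genes. The glycolytic enzymes rose in 11 cases and fell in 1 (Pgam1, -0.49 ± 0.049), with a median of 0.29, and the HIF targets rose in 8 and fell in 7, with a median of 0.064, beside -0.075 over all genes. 23 were called the same way in C2 and H7 (16 higher, 7 lower), against 19.9% higher and 27.3% lower of all genes. Aldoc was at 90.7 (lowest), 98.2 (median) and 109 CPM (highest) against 60.6, 62.3 and 64.8 CPM in the parental libraries, and rose by 0.65 ± 0.064 (edgeR adjusted p = 2.19e-10). Pfkl was at 433, 427 and 452 CPM in the 3 parental libraries and 621 (lowest), 667 (median) and 691 CPM (highest) with chr3, and rose by 0.59 ± 0.052 (edgeR adjusted p = 1.83e-11). Neither gene's groups overlapped. Hk1 (0.35), Pgk1 (0.41), Pfkp (0.35), Pfkm (0.29), Eno1 (0.23), Pkm (0.18) and Ldha (0.13) rose with them, Ldha only narrowly.

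Ddit4 with chr3 was at 526 (lowest), 607 (median) and 622 CPM (highest), P4ha1 at 143 (lowest), 162 (median) and 169 CPM (highest) and Higd1a at 106 (lowest), 116 (median) and 124 CPM (highest), rises by 1.23 ± 0.072, 0.96 ± 0.082 and 0.71 ± 0.084 over the parental libraries, with no overlap. P4ha2 rose by 0.51 ± 0.080 and Vegfa by 0.30 ± 0.059. Pdk1 rose by 0.17 ± 0.040 and was at 272 (lowest), 274 (median) and 281 CPM (highest), every library above the parental 3. Bnip3 and Bnip3l rose by 0.19 ± 0.062 and 0.14 ± 0.048. Egln3 at 61.2 (lowest), 66.7 (median) and 69.1 CPM (highest) fell by 0.88 ± 0.060 (edgeR adjusted p = 4.03e-14) and Egln1 at 46.8 (lowest), 49.9 (median) and 53.6 CPM (highest) fell by 0.61 ± 0.055 (edgeR adjusted p = 3.45e-11). Pfkfb3 (-0.58), Mxi1 (-0.45), Slc2a1 (-0.44), Slc16a3 (-0.36) and Kdm3a (-0.22) fell too. Feeder marker sums were lowest in the chr3 libraries, at less than those of any parental one, and their part in these values was not tested. Under other settings, calls for chr3 were lost by Ldha with library size alone (0.070) and Bnip3l with library size alone (0.079). With single libraries left out, they were lost by Ldha without parental 1, 2 or 3, F1 1 or 2, C2 1, 2 or 3 or H7 2 or 3 (0.11 to 0.15), Bnip3l without parental 2 (0.12) and Bnip3 without parental 2 (0.16).

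With the chr2 deletion 10 genes rose, near the 31.2% of all tested genes that did, and 17 fell, beside 34.1%, but this split moved with the processing. It was 12 higher and 11 lower with counts thinned to the smallest library, and 12 and 12 when the chr2 and parental libraries were fitted alone. The glycolytic enzymes rose in 3 cases and fell in 8 (median -0.11), and the HIF targets rose in 7 and fell in 9 (median -0.15), beside -0.017 over all genes. 19 were called the same way in D10 and G5 (9 higher, 10 lower), against 19.3% higher and 21% lower of all genes. Pdk1 was at 115 (lowest), 125 (median) and 145 CPM (highest), against 249, 239.5 and 245 CPM in the parental libraries, and fell by 0.93 ± 0.039 (edgeR adjusted p = 1.75e-19). Every chr2 library was well under every parental one. Slc2a1 at 345 (lowest), 474 (median) and 511 CPM (highest) fell by 0.81 ± 0.061 (edgeR adjusted p = 2.68e-13), and Pgam1 at 331 (lowest), 387 (median) and 413 CPM (highest) fell by 0.71 ± 0.048 (edgeR adjusted p = 2.36e-14). Egln3 at 38.1 (lowest), 60.97 (median) and 81.3 CPM (highest) and Egln1 at 35.03 (lowest), 50.5 (median) and 62.5 CPM (highest) fell by 1.07 ± 0.060 and 0.64 ± 0.055, again with no overlap. For Pdk1, Egln3 and Egln1 every D10 library lay below every G5 one, so these medians fall between the clones. Egln3 was at 38.1 to 50.6 CPM in D10 and 71.3 to 81.3 CPM in G5.

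Hk2 was at 524, 522 and 566 CPM in the 3 parental libraries and 313 (lowest), 399.9 (median) and 459 CPM (highest) with chr2, and fell by 0.47 ± 0.040 (edgeR adjusted p = 4.54e-12). Other enzymes lower in the mean of the chr2 clones were Pkm (-0.30), Gapdh (-0.22), Pfkl (-0.19), Ldha (-0.16), Eno1 (-0.14) and Pfkm (-0.11). Of these, Pkm and Pfkl were called lower in both clones, Gapdh in G5 alone, and Ldha and Eno1 in D10 alone. Pfkm was called higher in D10 (0.16) and lower in G5 (-0.38). Pgk1 went the other way, at 1806, 1765 and 1749 CPM in the 3 parental libraries and 2141 (lowest), 2507 (median) and 3506 CPM (highest), a rise by 0.55 ± 0.055 (edgeR adjusted p = 1.75e-10), and Aldoa and Pfkp rose by 0.30 ± 0.053 and 0.22 ± 0.044. Pgk1 and Pfkp were called higher in both clones, and Aldoa in D10 alone (0.55, against 0.049 in G5). Among the HIF targets, P4ha1 at 106 (lowest), 174 (median) and 279 CPM (highest) rose by 1.03 ± 0.082, Ddit4 at 397 (lowest), 476 (median) and 525 CPM (highest) by 0.89 ± 0.070, P4ha2 at 26.6 (lowest), 39.2 (median) and 55.05 CPM (highest) by 0.61 ± 0.081 over 25.1, 25.5 and 27.7 CPM in the parental libraries, and Higd1a at 87.8 (lowest), 108 (median) and 127 CPM (highest) by 0.59 ± 0.084. The groups overlapped for P4ha2 alone among these 4. For Hk2, Pgk1, P4ha1 and P4ha2 the libraries of D10 and G5 did not overlap, so their medians fall between the clones. Pfkfb3 was the 1 target called higher with chr2 and lower with the other 3 deletions, at 49.3, 47.4 and 49.4 CPM in the 3 parental libraries and 57.9 (lowest), 59.4 (median) and 93.9 CPM (highest) (0.47 ± 0.087, edgeR adjusted p = 1.86e-05). Under other settings, calls for chr2 were lost by Pfkm with RLE size factors, thinned counts, the compared libraries alone and DESeq2 (-0.085 to -0.016), Eno1 with RLE size factors, thinned counts, the compared libraries alone and DESeq2 (-0.11 to -0.090), Gapdh with thinned counts and DESeq2 (-0.19 to -0.16), Ldha with thinned counts and the compared libraries alone (-0.12 to -0.10), Ankrd37 with thinned counts and the compared libraries alone (-0.22 to -0.17), Kdm3a with thinned counts (-0.15) and Pfkfb4 with the compared libraries alone (-0.25). With single libraries left out, they were lost by Pfkm without parental 1 or 2 (-0.11 to -0.10), Eno1 without parental 2 (-0.13), Gapdh without parental 2 (-0.16), Ldha without parental 1 (-0.15), Ankrd37 without parental 2 or 3 or D10 2 or 3 (-0.24 to -0.18) and Pfkfb4 without parental 2 (-0.25).

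5 of the 35 genes, Egln1, Egln3, Slc2a1, Slc16a3 and Pgam1, were called lower with each of the 4 deletions and in each of the 8 clones, against 9.1% and 1.98% of all tested genes. The comparisons share the same 3 parental libraries, so the values are given side by side and not as separate support. Over the 8 clones log2 changes ran from -1.47 (D10) to -0.68 (G5) for Egln3, from -0.97 (F1) to -0.37 (G5) for Egln1 and from -0.94 (D10) to -0.41 (C2) for Slc2a1. They ran from -0.85 (F1) to -0.22 (G9) for Slc16a3 and from -0.76 (D10) to -0.19 (G9) for Pgam1. No gene of the 35 was higher with all 4 deletions (3.87% of all genes), 17 were called higher with at least 1 deletion and lower with another (15% of all genes), and Car9 was called with none. Pseudogene copies of Pgam1 had up to 11.2% of its level, so reads could be split between them.

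Set against the 6 clones of the other deletions instead of the parental line, the same genes gave other values with chr9. Egln3 was at -0.095 ± 0.045 and Slc2a1 at -0.013 ± 0.046, neither called. Egln1 at -0.10 ± 0.041 and Slc16a3 at -0.10 ± 0.044 were called lower (edgeR adjusted p = 0.024 and 0.0419), and Pgam1 was called higher by 0.36 ± 0.035 (edgeR adjusted p = 1e-10), without overlap. Of the other genes, Ddit4 (-1.39 ± 0.055), P4ha1 (-1.10 ± 0.062), Aldoc (-1.05 ± 0.049) and Higd1a (-0.88 ± 0.063) were lower in the chr9 clones than in the 6 others. In all, 4 of 35 were called higher and 26 lower, beside 40.8% and 31.1% of all tested genes. This comparison coincides with the difference in depth.

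**Figure D3:**
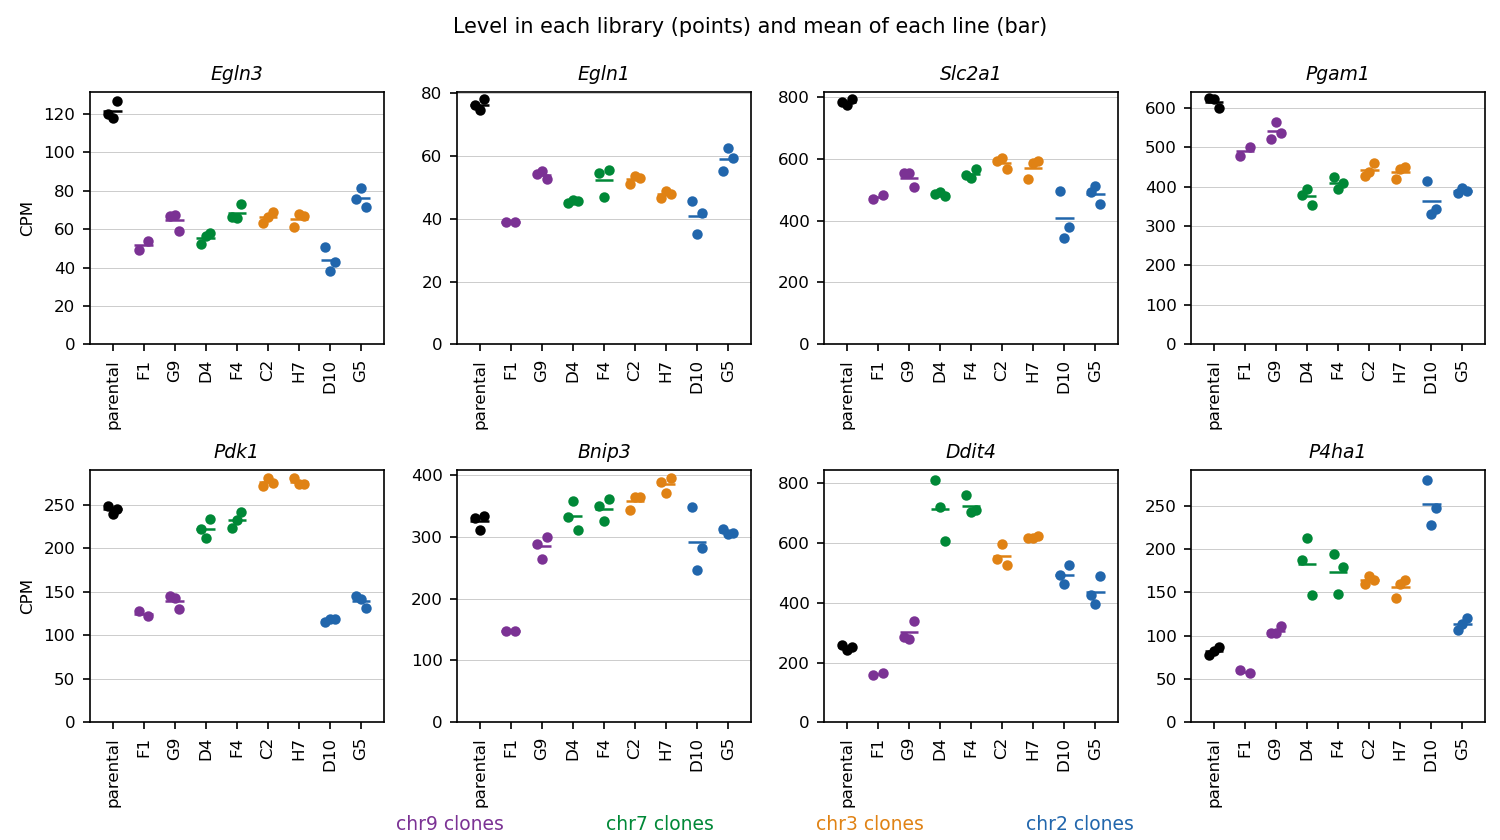
CPM of 8 genes (y axis, from 0) in each of the 26 libraries (points) of the parental line and 8 clones (x axis), with the mean of each line as a bar. Egln3, Egln1, Slc2a1 and Pgam1 are highest in the 3 parental libraries, Pdk1 is low in the chr9 and chr2 clones, and Ddit4 and P4ha1 are above the parental libraries in the chr7, chr3 and chr2 clones.

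Libraries of the lower depth range were also compared among themselves, without the parental line. Against the 4 clones of the other 2 such deletions, 9 genes were higher and 5 lower with chr7 (18.9% and 20.6% of all tested genes), 22 higher and 3 lower with chr3 (22.9% and 21.8%), and 5 higher and 21 lower with chr2 (31.2% and 28.5%). Each value sets 1 deletion against the mean of the others, so the values of a gene are tied and are not separate results. Pdk1 stood at -0.97 ± 0.030 with chr2, 0.69 ± 0.028 with chr3 and 0.27 ± 0.028 with chr7 (edgeR adjusted p = 2.29e-23, 2.54e-19 and 1.95e-09). Its median was 228 CPM with chr7, between 274 CPM with chr3 and 125 CPM with chr2. Pfkfb3 was at 1.01 ± 0.061 with chr2, -0.57 ± 0.064 with chr3 and -0.43 ± 0.064 with chr7, all called. Ddit4 was higher by 0.46 ± 0.047 with chr7 and lower with chr2 (-0.48 ± 0.049), and Ndrg1 was lower with chr7 (-0.64 ± 0.098). P4ha1 (0.11, -0.11 and -0.00094 for chr7, chr3 and chr2) and Higd1a (-0.025, 0.11 and -0.081) were called in none of the 3, although both had risen against the parental line. For P4ha1 this does not mean equal levels. D10 at 228 to 279 CPM lay above the chr7 and chr3 libraries (143 to 213 CPM), and G5 at 106 to 119.8 CPM lay below them. Against all 6 clones of other deletions, 20 were higher and 4 lower with chr7 (26.1% and 29.3% of all genes), 24 and 2 with chr3 (27.2% and 28.2%) and 10 and 13 with chr2 (30.1% and 27.4%).

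The 2 clones of a deletion were then compared with each other. The chr9 clones differed in 25 of the 35 genes, 23 higher in G9 and 2 lower (Pfkm, -0.20, and Pfkfb4, -0.49), beside 31.5% of all tested genes called in all, 14.1% higher and 17.4% lower. Without the first F1 library, which leaves a single F1 library assumed to vary like the other groups, the count was 14. Bnip3 had the largest difference, at 0.95 ± 0.082 (edgeR adjusted p = 3.02e-10), with the values given above. For Ddit4, 158 and 165 CPM in F1 were below the parental 260.1, 241 and 251 CPM and 285, 280.4 and 339 CPM in G9 were above them. The G9 minus F1 difference was 0.90 ± 0.090 (edgeR adjusted p = 4.77e-09). P4ha1 did the same, at 60.2 and 57.1 CPM in F1 and 103, 103 and 112 CPM in G9 around 78.2, 81.8 and 87.4 CPM in the parental libraries, a difference of 0.85 ± 0.10. Against the parental line both were called lower in F1 (-0.63 and -0.49) and higher in G9 (0.27 and 0.36), which 1.35% of all genes did. 12 of 14 feeder markers were higher in G9 than in F1, and their part was not tested.

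The chr7 and chr3 clone pairs were much closer. With chr7, 2 genes differed between F4 and D4, Egln3 (0.30 ± 0.074, edgeR adjusted p = 0.0387) and Vegfa (-0.30 ± 0.068, edgeR adjusted p = 0.0205), beside 0.965% of all genes. Egln3 was at 52.2, 56.2 and 58.2 CPM in D4 and 66.2, 65.8 and 72.8 CPM in F4, without overlap. The count ran from 0 to 6 over other settings. With chr3, 0 genes differed between H7 and C2 at an edgeR adjusted p under 0.05, beside 0.86% of all genes. At an unadjusted p under 0.05 the count was 6 (Hk1, Hk2, Aldoa, Pfkfb3, Egln1 and Car9), and DESeq2 called 1, Hk2.

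The chr2 clones differed in 20 genes, 8 higher in G5 and 12 lower, beside 50.7% of all genes called in all, 25.7% higher and 25% lower. P4ha1 was at 279, 228 and 247 CPM in D10 and 106, 113 and 119.8 CPM in G5 (-1.15 ± 0.092, edgeR adjusted p = 3.77e-12), both above the parental libraries. Gpi1 was at 2146, 1683 and 1927 CPM in D10 and 994, 1038 and 1046 CPM in G5, above and below the parental 1436, 1519 and 1551 CPM, a difference of -0.90 ± 0.075 (edgeR adjusted p = 8.65e-12). Egln3 was at 50.6, 38.1 and 42.7 CPM in D10 and 75.5, 81.3 and 71.3 CPM in G5 (0.80 ± 0.075), both under the parental range. Pfkm (-0.54 ± 0.050) and Aldoc (-0.46 ± 0.075) were, like Gpi1, called higher in D10 and lower in G5 against the parental line, which 3.78% of all genes did. The count of Pfkm may be mixed with that of the overlapping gene Senp1 (78.8% of its level). The mean of the 2 clones hides these: Gpi1 and Aldoc were not called for the deletion (-0.098 and 0.0046). Feeder marker sums of D10 and G5 overlapped.

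**Figure D4:**
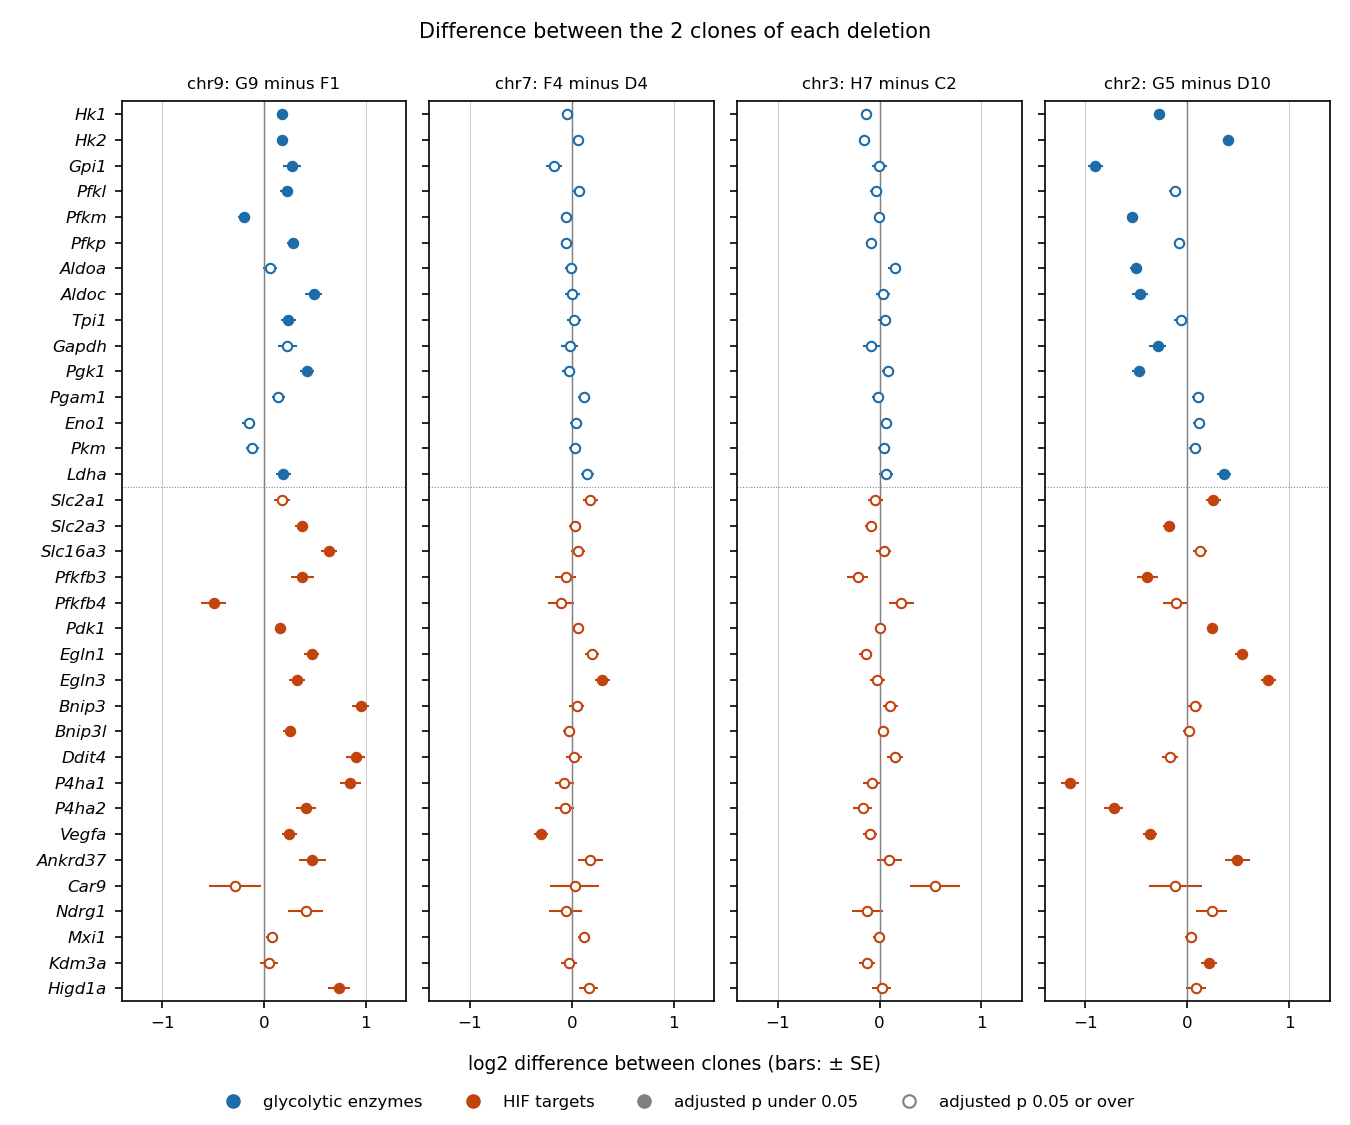
Log2 difference between the 2 clones of each deletion (x axis; bars are SE) for the 35 genes, with G9 minus F1, F4 minus D4, H7 minus C2 and G5 minus D10 in 4 panels. Filled points have an edgeR adjusted p under 0.05, 25, 2, 0 and 20 of them in that order.

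Genes that make and regulate HIF were called in both directions. Of 11 genes of the HIF machinery, 1 rose and 2 fell with chr9, 3 rose and 4 fell with chr7, 3 rose and 4 fell with chr3, and 2 rose and 7 fell with chr2. Of all tested genes 17.1% rose and 20.6% fell with chr9, 27.6% and 35.7% with chr7, 25.4% and 35.4% with chr3, and 31.2% and 34.1% with chr2, and the counts with chr9, chr7 and chr3 lie near or under these shares. Hif1a itself was called with none, at 0.12, 0.0011, 0.020 and 0.050 for chr9, chr7, chr3 and chr2, and lay at about 119 CPM in each of the parental libraries and 104 to 143 CPM in the clones. Epas1 was at 0.00061 with chr9, not called, and fell by 0.89, 0.65 and 0.75 with chr7, chr3 and chr2. With chr9 the called genes were Hif3a, an alpha-subunit relative that can restrain HIF (-0.59 ± 0.067), Arnt (-0.16 ± 0.047), and Cited2, which competes with HIF for its coactivators (0.41 ± 0.085). Cited2 fell by 1.51, 1.60 and 1.23 with chr7, chr3 and chr2. It was at 24.8 to 26.2 CPM in the parental libraries, 27.1 to 37.3 CPM with chr9 and 7.02 to 12.5 CPM in the other 6 clones.

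Of 24 further HIF targets, 2 rose and 18 fell with chr9, with a median of -0.34. 7 rose and 11 fell with chr7, 9 rose and 9 fell with chr3, and 3 rose and 14 fell with chr2. Beside these stand the shares of all tested genes, 17.1% higher and 20.6% lower with chr9, 27.6% and 35.7% with chr7, 25.4% and 35.4% with chr3, and 31.2% and 34.1% with chr2, and the split with chr7 is near its share. The 4 of largest change with chr9 were Stc2, a secreted glycoprotein (-0.997 ± 0.067), Lox, the collagen cross-linking enzyme (0.95 ± 0.24), the repressor Bhlhe40 (-0.82 ± 0.086) and the phosphoglucomutase Pgm1 (-0.78 ± 0.064). Stc2 was at 31.8 to 34.98 CPM in the parental libraries and 13.5 to 21.3 CPM with chr9, without overlap, whereas the ranges of Lox overlapped (4.72 to 8.56 CPM and 3.47 to 38.8 CPM). Lox is also made by fibroblasts, and it fell by 2.97 with chr3, where feeder markers fell too. Whether feeder RNA bears on it was not tested.

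Among 11 tested isoforms of glycolytic enzymes outside the 15, 1 rose and 3 fell with chr9, 5 and 5 changed with chr7, 4 and 5 with chr3, and 5 and 4 with chr2, beside the same shares of all tested genes (17.1% and 20.6% with chr9, 27.6% and 35.7% with chr7, 25.4% and 35.4% with chr3, 31.2% and 34.1% with chr2). Ldhb, the lactate dehydrogenase subunit that favours pyruvate, fell by 0.44 ± 0.057 with chr9 and rose by 2.44 ± 0.062, 2.33 ± 0.062 and 1.44 ± 0.059 with chr7, chr3 and chr2. It was at 157 to 169.7 CPM in the parental libraries, 99.4 to 147 CPM with chr9, 788 to 1025 CPM with chr7, 763 to 883 CPM with chr3 and 287 to 711 CPM with chr2. Hk3 rose from 0.0246 to 0.124 CPM to 0.376 to 0.879 CPM with chr9. The muscle enolase Eno3 and the muscle mutase Pgam2 fell by 0.69 ± 0.071 and 0.49 ± 0.13 with chr9.

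Of 13 genes that carry or use pyruvate and lactate, 6 rose and 3 fell with chr9, 3 and 5 with chr7, 3 and 5 with chr3, and 8 and 3 with chr2, beside 17.1% and 20.6%, 27.6% and 35.7%, 25.4% and 35.4%, and 31.2% and 34.1% of all tested genes in that order. The mitochondrial pyruvate carrier subunits Mpc1 and Mpc2 and the pyruvate carboxylase Pcx rose by 0.71 ± 0.075, 0.38 ± 0.092 and 0.65 ± 0.054 with chr9 and by 0.43 ± 0.073, 0.33 ± 0.091 and 1.07 ± 0.053 with chr2. With chr7 they were at 0.14, 0.22 and -0.0033, of which Mpc2 was called, and with chr3 at 0.011, 0.12 and 0.19, of which Pcx was called. Pdk4 fell by 0.31 ± 0.088 with chr9 and rose by 0.69 ± 0.087, 0.54 ± 0.087 and 0.55 ± 0.087 with chr7, chr3 and chr2. Of 7 enzymes of the pentose phosphate pathway, 1 rose and 2 fell with chr9: Pgd fell by 0.40 ± 0.042, Tkt fell by 0.21 ± 0.041 and Rpe rose by 0.31 ± 0.062. The counts were 0 and 3 with chr7, 2 and 3 with chr3, and 2 and 3 with chr2, beside the shares of all tested genes given for the pyruvate and lactate genes.

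Chromatin of the 35 genes was read from the authors' pooled peak lists of E14 mouse ES cells, another line without deletions. These have no replicates, and each fold enrichment is the authors' value for the peak. A peak of RNA polymerase II by ChIP lay within 2 kb of a gene end at 32 of the 35 genes (91.4%), against 63.3% of 17932 tested genes with a position, and by ChIA-PET at 34 (97.1%) against 79.7%. The 3 without a ChIP peak there were Hk1, Pfkfb4 and Mxi1. Each has a RefSeq transcript start further inside the gene, which the search did not cover. A PRC2 peak lay at 17 of the 35 (48.6%) against 33.2%, with the highest fold enrichment at Pfkfb3 (4.82), P4ha2 (4.61), Ndrg1 (3.45) and Gapdh (3.07). None reached 5-fold, which 9.37% of all genes did. H3K27me3 lay at 6 of the 35 (17.1%) against 14.1%, at Pfkfb3 (3.53), Ndrg1 (3.44), Vegfa (3.41), Egln1 (3.28), Mxi1 (3.24) and P4ha2 (2.74), and within 1 kb at 4. A CTCF peak lay at 8 (22.9%) against 29.8%. The gene list was not compared with genes of like expression, and RNA polymerase II marks expressed genes.

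PRC2 interactions, pairs of anchors joined by paired-end tags in the pooled E14 list, touched 33 of the 35 genes within 2 kb of a gene end, counting anchors of up to 20 kb. The share of all tested genes touched in this way was not counted, so the count cannot be read as particular to these genes. A gene had 0 to 9 of them, with a median of 3, and Car9 had the 9. The most tags in 1 interaction were 22 at Ndrg1, 18 at Slc16a3 and 17 at Pfkm, and Kdm3a and Pgk1 had 0 interactions. These are contacts in cells with all elements present, and no interaction of the deleted lines was set beside them here.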

How the data were processed

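RNA was measured in 26 B6NJ libraries of a series of 107 samples, and E14 chromatin in pooled peak and interaction lists. Samples were grouped by the line and clone that their labels give. The deposited RNA values are whole-number counts of reads per gene, not normalized. Per the submitters' processing notes, 25 of them went through Trim Galore 0.4.0 (trimming), HISAT2 2.1.0 (alignment to GRCm38, mm10) and HTSeq 0.6.1 (counting), with Cufflinks 2.2.1 also named. No tool is named for the remaining chr3 library. The strand setting of the counting was not stated, which can mix the counts of genes that overlap or leave their shared reads out. Overlaps were taken from whole gene spans, and exons were not compared. Reads with several positions (15.0% to 17.2% of all rows per library), of low alignment quality (15.2% to 17.6%), outside genes (3.50% to 5.80%) or in several genes (0.943% to 1.08%) name no gene and stayed out of library sizes, which affects genes with copies. Peak lists give a fold enrichment (ratio to background) per peak, as the authors deposited it, on pooled samples. The submitters' processing notes name MACS2 2.1.1.20160309, BWA 0.7.12 and cutadapt 1.14. Interactions were deposited as counts of paired-end tags per anchor pair, from ChiaSig per the file headers.

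After edgeR's filterByExpr, 19993 genes were tested in 1 model of the 26 libraries and 9 lines by edgeR 4.0.16 (quasi-likelihood test, TMM factors), limma 3.58.1 and R 4.3.3, with Benjamini-Hochberg adjustment at 0.05. Deletions were compared as the mean of 2 clones minus the parental line, minus the 6 clones of other deletions, and minus the 4 other clones of the lower depth range, and clones were compared with the parental line and with each other. The SE of a log2 change is its size divided by the square root of F. The common biological coefficient of variation was 7.39%. Chi-square per degree of freedom between replicates was 4.27 to 54.6, and none was treated as a copy of another. At these depths small changes pass the test.

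Symbols came from an annotation table (99.6% of IDs matched) and gene positions, promoter windows and coordinates from RefSeq on GRCm38.p6. Members, pathway lists and tests were chosen with earlier results of these data known. Values per library are given for members called the same way in both clones and changed by at least 1.5-fold, and of each pathway list up to 4 called genes of largest change with chr9 are named. Slc16a3, Tpi1, Hk2, Pgk1, Pfkfb3, Epas1, Hif1a and the values of named genes under the other deletions fall outside these rules and were chosen after their values were seen. Alternatives were other scalings, no filter, DESeq2 1.42.0, a replicate block, thinned counts, fits of the compared libraries alone or without 1 library, an adjusted p of 0.01 and other peak limits. The model was tested on simulated counts. Python 3.11.15, numpy 2.4.6, pandas 2.3.3 and matplotlib 3.10.9 were used. Interactions with anchors wider than 20 kb at Pdk1 and Pfkfb3 were not used.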

Additional observations from a re-analysis of the deposited data

Results flagged for a closer look

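Clones of 1 deletion differed in these genes by a test of the difference itself (edgeR's quasi-likelihood test, adjusted p under 0.05 over all tested genes). Between G9 and F1, 25 of the 35 genes differed, beside 31.5% of all tested genes. Between F4 and D4, 2 differed, beside 0.965%, and between G5 and D10, 20, beside 50.7%, a share near that of the 35 genes.

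Within the chr9 deletion, Ddit4 and P4ha1 were lower than the parental line in F1 and higher in G9, and the G9 minus F1 differences were 0.90 and 0.85 on the log2 scale. Within the chr2 deletion, Gpi1, Pfkm and Aldoc were higher than the parental line in D10 and lower in G5, and the G5 minus D10 differences were -0.90, -0.54 and -0.46. Deletion means of these genes therefore average over clones that went opposite ways. Each clone is 1 line, and what sets the clones apart was not tested.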

How the results depend on the processing

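Of 106 calls of the 35 genes over the 4 deletions, 88 held under all 7 other settings and all 26 fits that left out 1 library, 89 held under the 7 settings, and 0 changed direction. With library size alone, 1 gene was called higher with chr9, the enzyme median was -0.27 with chr9 and 0.23 with chr3, and the target median was -0.37 with chr9. With counts thinned to the smallest library, enzyme medians were -0.32, 0.24 and 0.39 for chr9, chr7 and chr3, target medians -0.34, -0.016, 0.17 and -0.0079 for chr9, chr7, chr3 and chr2, and 11 genes fell with chr2. With the compared libraries only, 1 gene was called higher with chr9 and 0 differed between F4 and D4. The F4 and D4 count was 6 with no filter and 1 with the replicate block. DESeq2 called 1 gene between the chr3 clones, and at an adjusted p of 0.01, 10 genes fell with chr2. The causes were not tested. Scalings moved the median of all genes by -0.062 to 0.077, thinning by 0.018 to 0.070.

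Over the fits that left out 1 library, the chr9 medians ran from -0.37 to -0.31 for the enzymes and -0.49 to -0.39 for the targets. The count between G9 and F1 ran from 14 (without F1 library 1) to 29, and that between F4 and D4 from 0 to 4. Leaving out F1 library 1 or 2 leaves clone F1 with 1 library, assumed to vary like the others.

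Replicate numbers did not pair the samples: libraries with the same number in different lines had a mean correlation of -0.00049 (-0.060 to 0.053), and 8 of 26 correlated best with their own number. With the number as a replicate block, 105 of 106 calls held. Ddit4 with chr9 was lost (edgeR adjusted p = 0.0502).

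Limits are the single parental line and 3 parental libraries behind every deletion comparison, 2 clones a deletion, and depth and feeder markers that move with the groups. The E14 lists have no replicates.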
